A study of Homo sapiens with 12 samples.

Results

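The change in transcript levels that accompanied selection for bead uptake was compared between A375, an established human skin melanoma line, and 253J, an established human line from a bladder transitional cell carcinoma. For each gene the difference was the log2 change from negative to positive cells in A375 minus the same change in 253J, and genes with a mean of at least 10 normalized read counts in each line were kept, which left 12509 of the 19423 genes listed for both lines. A further 1609 genes reached that level in A375 alone, 1680 in 253J alone and 3625 in neither. At the edge of the rule, LACTB2-AS1 (10.0 in A375, 12.9 in 253J) was kept and HSPA9P1 (9.98 in A375, 14.6 in 253J) was not.

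The 12 libraries form 4 groups of 3: A375 positive, A375 negative, 253J positive and 253J negative. All cells grew in MEM with 10% fetal calf serum, were given fluorescent 2.4 µm beads for 24 h and were sorted by flow cytometry, the positive cells having taken up at least 1 bead and the negative cells none. The sort was run 5 times on each branch, every time after 5 generations in culture, and no drug or genetic change was described for any group. The labels do not say whether the 3 libraries of each branch stem from independent cultures, so p-values measure the spread between these libraries, which may be technical, and branch differences with an origin outside uptake cannot be told apart here from those that go with it. In such bulk libraries, fewer cells that express a gene and less of its RNA per cell cannot be told apart.

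Phagocytosis begins when surface receptors bind a particle, and branched actin then pushes the membrane around it. The closed vesicle matures through Rab GTPases and fuses with lysosomes. Cells also anchor to and remodel an extracellular matrix of collagens, proteoglycans and glycoproteins, which bears on how stiff and how adherent they are. Melanoma cells stem from the neural crest and bladder carcinoma cells from an epithelium, so the lines start from different transcriptomes.

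Depth was even, at 14576506 to 17916519 recovered reads per library. The simple-epithelial keratin KRT19 was at 6308.8 to 9234 in 253J and at 1.9 to 5.9 in A375, and the pigment cell protein PMEL was at 2459 to 4506 in A375 and at 56.9 to 113 in 253J. TYR, the pigment-forming enzyme, reached 92.6 in A375 and was listed at 0 in all 253J libraries. Of the other markers of these types, KRT7, KRT8 and KRT18 were higher in 253J, and MLANA was at 41.9 to 94.0 in A375 and up to 7.1 in 253J. The epithelial EPCAM was near 0 in both lines (up to 6.1 in 253J). The pigment cell factor MITF was high in both, at 3324.4 to 5462.1 in A375 and 1116.8 to 1192.3 in 253J, and SOX10 was not analysed here. Of the urothelial markers, PPARG was at 306.9 to 385.1 in 253J and 55.8 to 144.6 in A375, GATA3 was low in both lines (14.2 to 26 in 253J), and UPK1A, UPK2 and UPK3A were not analysed here. Of 16 leukocyte markers 2 were kept in both lines, as were 2 of 12 stromal and vascular markers, with the leukocyte genes PTPRC and CD68 at up to 14.2 and 6.0. Of the stromal genes, PDGFRB was at up to 51.8 in A375 and 2.0 in 253J, and COL1A1 at up to 9.0 in A375 and 242.5 to 305.0 in 253J. The pericyte marker RGS5 (ENSG00000143248) averaged 94.4 in A375 and 24883.8 in 253J, and its change differed between the lines. The part of such cells in the results was not tested. The libraries fall into sets by the sample number in the labels. Positive replicates 1 and 2 and negative replicate 1 of A375, and replicates 1 and 2 of both 253J branches, carry numbers up to 12, and the others carry numbers from 19. Libraries of a group from the same set had a chi-square, divided by its degrees of freedom, of 1.24 to 1.57, against 6.56 to 15.5 across sets. The sets are split unevenly over the A375 branches, so A375 changes from fits without a number set block mix number set with uptake.

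The effect of uptake selection was largely unlike in the 2 lines. A gene was called where the Benjamini-Hochberg adjusted p of limma was under 0.05. For the difference between lines 770 genes were called, which is 6.16% of those tested. The A375 change was the more positive for 398 of them (3.18%) and the more negative for 372 (2.97%). The difference was at least 2-fold for 207 and at least 4-fold for 52. Within the lines, 1179 genes (9.43%) were called in A375, 570 (4.56%) higher and 609 (4.87%) lower in positive cells, and 116 (0.927%) were called in 253J, 54 (0.432%) higher and 62 (0.496%) lower. Across genes, the A375 and 253J changes had a Pearson r of 0.05 and a Spearman rho of 0.05, given as a description since genes are not independent. The typical standard error of a change was similar, with a median of 0.097 in A375 and 0.098 in 253J on the log2 scale. The spread of the changes over genes was wider in A375, with an SD of 0.339, against 0.222 in 253J. No positive library overlapped a negative one for 3617 genes (28.9%) in A375 and 2541 (20.3%) in 253J.

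The replicate numbers were taken as pairs in 253J, where same-numbered positive and negative libraries deviated from their group means together. For replicates 1 and 2 this choice was barely set apart. Positive replicate 1 had a correlation of 0.30 with negative replicate 1 and 0.23 with negative replicate 2. For positive replicate 2 it was 0.22 with negative replicate 2 and 0.19 with negative replicate 1. Both are of the low-numbered set, so pairs and number sets are not clearly told apart. With the replicate number as a block, 1751 genes were called in 253J, among them all 116 called without it. In A375 the numbers did not pair the libraries (same-number correlations of 0.43, -0.28 and 0.40), so a replicate block has no pairs behind it there. This limit also holds for A375 changes and differences between lines said below to pass with the replicate block. All 770 differences stayed called with the replicate block in both lines, and 85 of them with same-set libraries averaged. Once the median change of each chromosome had been taken out, 433 of the 770 stayed called. On leaving out each library in turn, 444 to 916 genes were called, and 381 of the 770 were called every time.

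**Figure D1:**
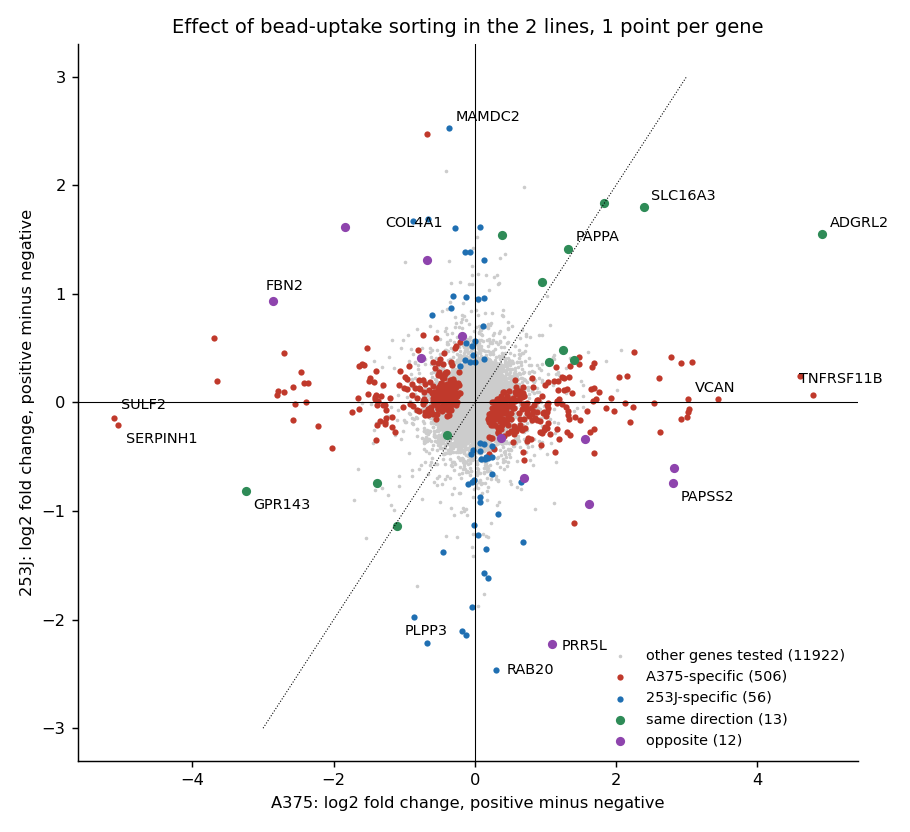
Log2 change from negative to positive cells in A375 (horizontal axis) and 253J (vertical axis), 1 point for each of the 12509 genes tested, coloured by response class, with the number of genes in the legend. The dotted line marks equal changes. The 506 A375-specific genes lie along the horizontal axis and the 56 253J-specific genes along the vertical one, while 13 genes changed the same way in both lines and 12 in opposite ways.

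Genes were sorted by 3 tests, A375 alone, 253J alone and the difference. Those called in both lines with 1 sign form the same-direction class (13 genes, 0.104%) and those called in both with unlike signs the opposite class (12 genes, 0.0959%). Genes called in 1 line and for the difference are specific to that line, 506 for A375 (4.05%) and 56 for 253J (0.448%). A further 683 genes were called in 1 line without a called difference (5.46%), and 190 for the difference alone (1.52%). A line-specific gene is one that did not pass in the other line, which does not show that it was stable there. With the replicate block in 253J, all 13, all 12 and all 56 genes kept their classes, and 110 of the 506 A375-specific genes also passed in 253J, 19 with the sign they had in A375 and 91 with the other sign. The called difference that defines this class favours unlike signs, so that split is partly built in. Without the block, 359 of the 506 had the other sign in 253J. That fit put 118 genes in the same-direction class and 107 in the opposite class.

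In the same-direction class, 9 genes rose and 4 fell in positive cells of both lines. SLC16A3, the monocarboxylate transporter that exports lactate (chr17:82228397-82261129 on GRCh38, plus strand), had 1038, 964 and 927 normalized read counts in A375 positive cells, against 204, 172 and 179 in A375 negative cells. In 253J it had 829.8, 748.5 and 608 in positive cells, against 273, 193 and 168 in negative cells. In both lines every positive library lay above every negative one. SLC16A3 rose 5.26-fold in A375 (limma adjusted p = 3.33e-05) and 3.48-fold in 253J (0.0023), and the difference of 0.60 ± 0.22 log2 (SE) was not called (0.146). PAPPA, a secreted metalloproteinase that cleaves IGF-binding proteins, had 168, 179 and 99.3 in A375 positive cells, against 90.8, 43.5 and 46.8 in A375 negative cells. In 253J positive cells it had 968, 961.5 and 812, against 374.8, 356 and 297 in 253J negative cells. The groups did not overlap, although in A375 the lowest positive library was close to the highest negative one. PAPPA rose 2.50-fold in A375 (adjusted p = 0.0404) and 2.67-fold in 253J (0.000466), a difference of -0.09 ± 0.37 log2 (0.922).

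TENM3, a teneurin that bridges cells by binding latrophilins, had 1126, 1071 and 1095.5 in A375 positive cells, against 572.5, 550.0 and 586 in A375 negative cells. In 253J positive cells it had 196, 189.8 and 164, against 98.3, 90.6 and 67.2 in 253J negative cells. It rose 1.93-fold in A375 and 2.15-fold in 253J (adjusted p = 0.000227 and 0.0155). The latrophilin ADGRL2 rose in both lines as well. It had 38.4, 37.8 and 35.5 in A375 positive cells, against 1.0, 0.0 and 0.0 in A375 negative cells, and 708, 703 and 744 in 253J positive cells, against 234, 242 and 261 in 253J negative cells. Its 253J rise was 2.92-fold, and no fold is given for A375, where the negative cells were near 0. The cAMP phosphodiesterase PDE7B rose 3.56-fold in A375 and 3.57-fold in 253J, the closest match in size of the class, and its mean was under 50 in 253J. The 253J calls of TENM3 and PDE7B were lost without 253J positive replicate 1 or 2 or 253J negative replicate 2, and that of PDE7B also without 253J positive replicate 3.

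Of the other genes that rose, the calcium channel subunit CACNA2D1, the inhibitory G protein subunit GNAI1 and the microtubule-associated MAP1B rose 2.65-, 2.37- and 2.07-fold in A375 and 1.31-, 1.39- and 1.29-fold in 253J. For these 3 genes the difference was called (adjusted p = 0.000733, 0.00449 and 0.000657). NCKAP5 had the larger rise in 253J, with 1.30-fold in A375 and 2.91-fold in 253J (difference -1.16 ± 0.23 log2, adjusted p = 0.00943).

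Among the genes that fell, CDYL2, a chromodomain protein, had 44.6, 52.0 and 77.0 in A375 positive cells, against 116, 126 and 126 in A375 negative cells. In 253J positive cells it had 27.8, 34.8 and 39.6, against 77.1, 64.2 and 87.3 in 253J negative cells. It fell 2.15-fold in A375 and 2.21-fold in 253J (adjusted p = 0.0144 and 0.028), with no overlap between groups. SEC14L1, of the SEC14 lipid-binding family, fell 1.31- and 1.23-fold in A375 and 253J. The melanosomal receptor GPR143 fell to 2.1, 7.6 and 4.1 in A375 positive cells, against 48.9, 37.6 and 58.7 in A375 negative cells, and to 44.9, 48.5 and 44.7 in 253J positive cells, against 76.1, 85.3 and 84.3 in 253J negative cells. Its difference was called (-2.42 ± 0.42 log2, adjusted p = 0.00477). SLC16A3 and ADGRL2 were the 2 genes of the class that stayed called in both lines whichever single library was left out. The 253J calls of CACNA2D1, MAP1B and GPR143 were lost on leaving out any 1 253J library other than negative replicate 3. Those of GNAI1 and CDYL2 were lost without 253J positive replicate 1 or 2 or 253J negative replicate 1 or 2. The A375 calls of PAPPA, NCKAP5, CDYL2 and SEC14L1 were lost without A375 positive replicate 1 or 2 or A375 negative replicate 2 or 3. With chromosome medians taken out, the A375 calls of PAPPA (adjusted p = 0.0618) and NCKAP5 (0.0505) and the 253J calls of CACNA2D1 (0.0795), GNAI1 (0.0646) and SEC14L1 (0.0665) were lost. SLC16A3 shares exon sequence with CSNK1D and TENM3 with AC108142.1, each on the opposite strand, and no source used here gives the strand setting of the counting.

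In the opposite class, 7 genes rose in A375 and fell in 253J, and 5 did the reverse. PAPSS2, which makes the sulfate donor used to sulfate proteoglycans (chr10:87659613-87747705, plus strand), had 193, 198 and 198 in A375 positive cells, against 27.9, 28.7 and 24.9 in A375 negative cells. In 253J positive cells it had 160.4, 182 and 172, against 308, 295 and 259 in 253J negative cells. It rose 7.01-fold in A375 (adjusted p = 6.87e-05) and fell 1.67-fold in 253J (0.0135), and the difference was 3.55 ± 0.15 log2 (4.29e-08). DUSP9, a phosphatase of MAP kinases, had 277, 332 and 391 in A375 positive cells, against 83.8, 129.6 and 112 in A375 negative cells. Its 253J positive libraries had 36.4, 34.8 and 40.6, against 73.2, 79.1 and 64.2 in 253J negative cells. DUSP9 rose 3.08-fold in A375 and fell 1.91-fold in 253J (adjusted p = 0.00247 and 0.028).

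TMX4, a thioredoxin-related protein of the endoplasmic reticulum, had 1751, 1803 and 1370.1 in A375 positive cells, against 1142, 915 and 964.5 in A375 negative cells. Its 253J positive libraries had 1142, 1128 and 1211, against 1844, 1724 and 2096 in 253J negative cells. Its change was of equal size in the 2 lines, 1.62-fold up in A375 and 1.62-fold down in 253J. The matricellular protein NOV rose 2.96-fold in A375 and fell 1.26-fold in 253J, and the glycogen branching enzyme GBE1 rose 1.29-fold and fell 1.25-fold. IGFBP7, a secreted IGF-binding protein, rose to 42.6, 56.8 and 78.0 in A375 positive cells, against 7.0, 6.9 and 8.0 in A375 negative cells, and fell to 1299, 1392 and 1438 in 253J positive cells, against 1927, 1891 and 2485 in 253J negative cells. The mTORC2-binding protein PRR5L rose 2.14-fold in A375 and fell to 2.1, 3.2 and 4.1 in 253J positive cells, against 27.0, 14.1 and 15.1 in 253J negative cells.

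The 5 genes that fell in A375 and rose in 253J include CTSZ, a lysosomal cathepsin. It had 1993, 2024 and 2073 in A375 positive cells, against 3268.5, 3634 and 3488 in A375 negative cells, and 537, 537 and 586 in 253J positive cells, against 419, 400.0 and 431.5 in 253J negative cells. CTSZ fell 1.70-fold in A375 (adjusted p = 0.000431) and rose 1.33-fold in 253J (0.0383). FBN2, a fibrillin, had 3.1, 4.7 and 4.1 in A375 positive cells, against 34.9, 30.7 and 38.8 in A375 negative cells, and 55.6, 54.8 and 70.0 in 253J positive cells, against 28.9, 31.6 and 32.1 in 253J negative cells. FBLN1, a fibulin, had 7.3, 2.8 and 3.0 in A375 positive cells, against 17.0, 17.8 and 15.9 in A375 negative cells, and 83.4, 83.3 and 82.2 in 253J positive cells, against 27.9, 19.3 and 34.1 in 253J negative cells. EYA4, a transcriptional co-activator, fell 1.60-fold in A375 and rose 2.49-fold in 253J, and SCRN1 fell 1.13-fold and rose 1.53-fold. IGFBP7 shares exon sequence with POLR2B and EYA4 with TARID, each on the opposite strand. All 12 opposite genes stayed called for the difference without each library in turn, but none stayed called in both lines each time, since all 12 lost the 253J call without 253J positive replicate 2. The loss was not confined to that library. Without 253J positive replicate 1 or 3 the class held 1 and 5 genes. Without 253J negative replicate 1, 2 or 3 it held 3, 2 and 31. CTSZ, DUSP9, FBN2, EYA4, GBE1 and IGFBP7 lost the 253J call on leaving out any 1 253J library other than negative replicate 3. The A375 calls of TMX4, EYA4, SCRN1 and PRR5L were lost without A375 positive replicate 1 or 2 or A375 negative replicate 2 or 3, and that of FBLN1 without A375 positive replicate 2 or A375 negative replicate 2 or 3. With chromosome medians taken out, the A375 calls of EYA4 (adjusted p = 0.0636) and SCRN1 (0.0886) and the 253J calls of NOV (0.0665) and EYA4 (0.0531) were lost.

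**Figure D2:**
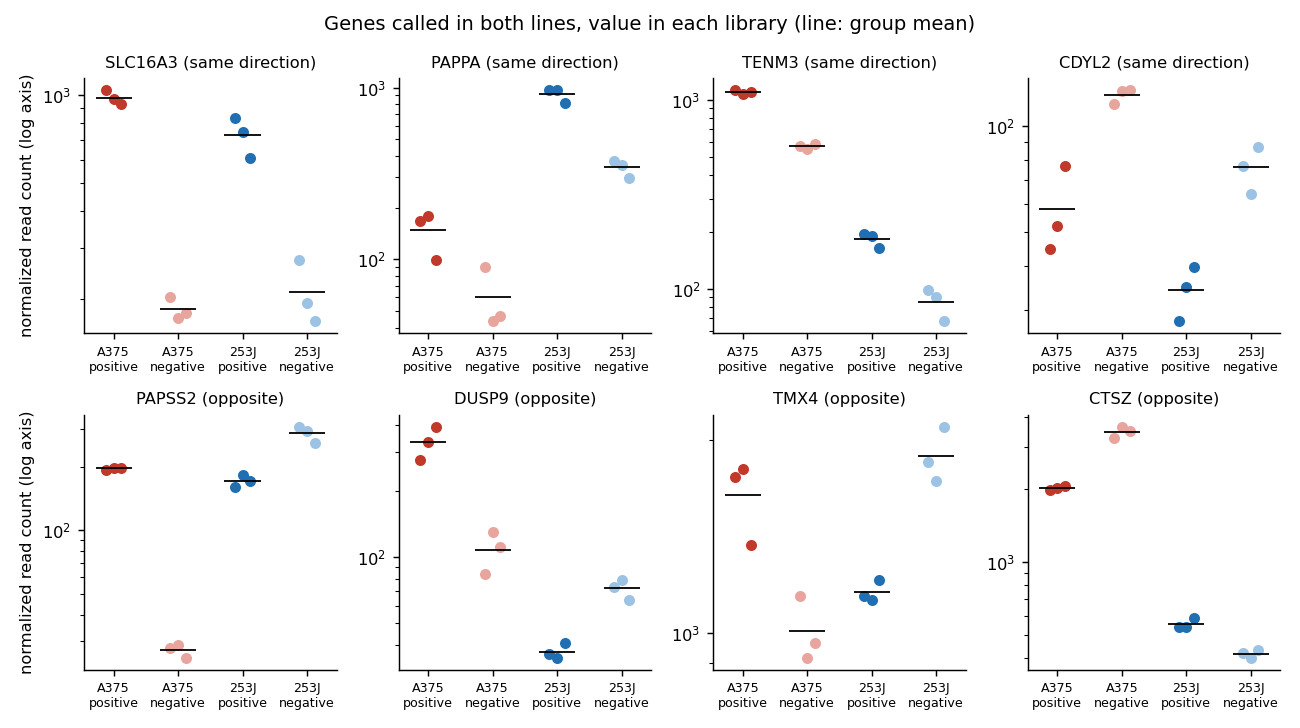
Normalized read count in each of the 12 libraries (log axis) for 4 same-direction genes (top row) and 4 opposite genes (bottom row), with positive left of negative and A375 left of 253J, and a line at each group mean. SLC16A3 and PAPPA are higher in positive cells of both lines, CDYL2 is lower in both, and PAPSS2 is 7.01-fold higher in A375 positive cells and 1.67-fold lower in 253J positive cells.

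Of the 506 A375-specific genes, 258 rose and 248 fell in A375 positive cells. Their median absolute change was 0.53 log2 in A375 and 0.10 in 253J, and 383 changed by under 0.2 log2 in 253J. The collagen chaperone SERPINH1 (chr11:75562056-75572783, plus strand) had 59.2, 54.9 and 49.7 in A375 positive cells, against 2082, 1691.5 and 1759 in A375 negative cells. Its 253J positive libraries had 6004, 6092 and 5422, against 7059.6, 6896 and 6263 in 253J negative cells. The A375 fall was 33.1-fold (adjusted p = 9.89e-07) and the difference -4.84 ± 0.13 log2 (2.13e-10). In 253J its 1.15-fold lower level was not called (0.241) but passed with the replicate block (0.0026). SULF2, which removes sulfate groups from heparan sulfate, had 1.0, 5.7 and 6.1 in A375 positive cells, against 168, 148 and 156 in A375 negative cells, and 667, 629 and 629 in 253J positive cells, against 727, 741 and 667 in 253J negative cells. SULF2 shares exon sequence with NCOA3 on the opposite strand.

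VCAN, a large chondroitin sulfate proteoglycan of the matrix, had 1978, 1829.6 and 1568 in A375 positive cells, against 275, 192 and 200.1 in A375 negative cells. Its 253J positive libraries had 377.5, 419.6 and 496, against 408.5, 397 and 455.5 in 253J negative cells, where the groups overlapped. VCAN rose 8.09-fold in A375 (adjusted p = 8.98e-05). ROBO2, a receptor for SLIT guidance cues, and SLC8A1, a sodium-calcium exchanger, rose 8.04- and 8.42-fold in A375, with 1.10-fold lower and 1.30-fold higher levels in 253J. Among A375-specific genes with a mean of at least 50 in each line, the next largest rises were those of TNFAIP6, a hyaluronan-binding protein (4.47-fold), the protease ADAMTS1 (4.12-fold), the microtubule-associated MAP2 (3.80-fold), the noncoding RP11-568K15.1 (3.22-fold) and the potassium-chloride cotransporter SLC12A7 (3.18-fold). The next largest falls at that level were those of the calcium-binding CALB2 (13.0-fold), SHISA3 (6.50-fold), the growth factor MDK (3.12-fold), the actin-oxidising enzyme MICAL2 (2.89-fold), the organic anion transporter SLCO3A1 (2.83-fold) and the nicotinamide methyltransferase NNMT (2.64-fold). CALB2 varied within its group, with 204.5, 43.5 and 45.8 in A375 negative cells, and its A375 call was lost without A375 positive replicate 2, negative replicate 2 or negative replicate 3. With the replicate block, SLC8A1, ADAMTS1, MDK, MICAL2, NNMT, SHISA3 and CALB2 also passed in 253J (adjusted p = 0.0106, 0.00235, 0.00165, 0.000105, 0.000451, 0.00123 and 0.0051). Replicates 1 and 2 of each 253J group differed little (chi-square over degrees of freedom of 1.24 in positive and 1.27 in negative cells). With same-set libraries averaged, which leaves 2 values per group, SERPINH1 and these 7 genes did not pass in 253J (adjusted p = 0.916, 0.82, 0.893, 0.66, 0.78, 0.906, 0.63 and 0.598), nor did any gene said below to pass there with the replicate block.

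Of the 56 253J-specific genes, 24 rose and 32 fell in 253J positive cells, with a median absolute change of 0.13 log2 in A375 and 0.87 in 253J. COL4A1 and COL4A2, the chains of the basement membrane collagen IV, rose together in 253J. COL4A1 had 5008, 4825 and 5238 in A375 positive cells, against 4689.8, 4858 and 4842 in A375 negative cells, and 692, 689.5 and 705 in 253J positive cells, against 236, 226 and 216 in 253J negative cells. COL4A2 had 9325, 9196 and 9949 in A375 positive cells, against 9570.1, 9984.5 and 10452 in A375 negative cells, and 786, 809.7 and 874 in 253J positive cells, against 308, 308 and 328 in 253J negative cells. In 253J the positive libraries were all above the negative ones for both chains. The rise was 3.07-fold for COL4A1 (adjusted p = 7.04e-05) and 2.61-fold for COL4A2 (9.95e-05). The differences were -1.55 ± 0.07 log2 (1.53e-07) and -1.46 ± 0.08 log2 (8.63e-07), and A375 changed by 0.07 ± 0.05 and -0.08 ± 0.06 log2.

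The 2 genes lie head to head on chromosome 13, and their promoter windows are shown because the pair rose together in 253J and shares its start region. The RefSeq windows on GRCh38.p14 run from 250 bases before to 50 bases after each start, chr13:110307108-110307407 on the minus strand for COL4A1 and chr13:110307034-110307333 on the plus strand for COL4A2. They overlap by 226 bases. Capitals mark the 126 bases that lie between the start sites, read from opposite strands in the 2 lines:
COL4A1: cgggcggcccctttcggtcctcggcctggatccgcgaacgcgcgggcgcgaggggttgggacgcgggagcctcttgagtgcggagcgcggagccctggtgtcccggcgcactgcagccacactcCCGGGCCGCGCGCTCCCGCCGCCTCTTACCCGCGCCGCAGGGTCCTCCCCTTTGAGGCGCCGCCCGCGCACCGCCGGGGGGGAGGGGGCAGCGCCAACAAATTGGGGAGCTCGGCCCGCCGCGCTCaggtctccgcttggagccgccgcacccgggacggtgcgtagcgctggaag
COL4A2: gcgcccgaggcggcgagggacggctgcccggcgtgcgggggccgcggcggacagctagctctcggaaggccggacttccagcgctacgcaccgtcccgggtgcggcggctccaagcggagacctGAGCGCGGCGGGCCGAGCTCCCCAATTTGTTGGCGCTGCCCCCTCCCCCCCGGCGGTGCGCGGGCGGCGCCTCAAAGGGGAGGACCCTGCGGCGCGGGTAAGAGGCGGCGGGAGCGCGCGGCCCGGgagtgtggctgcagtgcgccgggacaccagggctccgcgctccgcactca
G and C make up 76.7% of the COL4A1 window and 77.7% of the COL4A2 window.

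The other 253J-specific genes with the largest rises were MAMDC2, a secreted proteoglycan, SIRPB1, a signal-regulatory receptor, the calcium release channel RYR2 and the adhesion molecule NCAM1. MAMDC2 had 94.5, 151 and 310.1 in A375 positive cells, against 128, 294 and 258 in A375 negative cells, and 199, 173 and 135 in 253J positive cells, against 31.8, 33.4 and 21.1 in 253J negative cells. Its A375 libraries overlapped widely, while the 253J groups were apart, with a 5.74-fold rise (adjusted p = 0.000908). SIRPB1 rose 3.21-fold, RYR2 2.49-fold and NCAM1 1.97-fold in 253J, and NCAM1 was 1.24-fold lower in A375 positive cells (adjusted p = 0.0634). Of the genes that fell, RAB20, a GTPase of endosomes and maturing phagosomes, had 258.5, 277 and 176 in A375 positive cells, against 253, 158 and 168 in A375 negative cells. Its 253J positive libraries had 19.2, 12.7 and 17.3, against 97.3, 96.7 and 88.3 in 253J negative cells. RAB20 fell 5.53-fold in 253J (adjusted p = 0.000539), with a difference of 2.77 ± 0.30 log2 (0.000177). PLPP3, a phosphatase of lysophospholipids, fell 4.42-fold to 48.1, 41.1 and 53.8 in 253J positive cells, against 200.4, 199.6 and 242 in 253J negative cells. The complement-C1q-like C1QL1, the semaphorin co-receptor NRP2, the collagen chain COL6A1 and the actin-bundling LIMA1 fell 2.59-, 2.55-, 2.19- and 2.04-fold in 253J. The 253J calls of SIRPB1 and COL6A1 were lost without 253J positive replicate 1 or 2. NCAM1 shares exon sequence with RP11-629G13.1 on the opposite strand.

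Gene lists were read against the 6.16% of all tested genes called for the difference. The lists were chosen with earlier results of these data known, so a high share may be partly built in. The shares here and below are a description, and no excess was tested. Of 40 genes on collagens and their folding, 23 were tested and 11 (47.8%) were called, 7 with a more positive change in A375 and 4 with a more negative one. COL5A2, a fibrillar chain, rose 4.58-fold in A375 and was 1.13-fold lower in 253J positive cells. The modifying enzymes PLOD1, P3H1, P4HA2 and P4HB rose 1.48-, 1.42-, 1.43- and 1.21-fold in A375 and were 1.22-, 1.20-, 1.07- and 1.05-fold lower in 253J. The lysyl hydroxylase PLOD2 fell 2.08-fold in A375, with 1.22-fold higher levels in 253J. COL27A1 fell 1.32-fold in 253J and COL6A1 2.19-fold, and the COL27A1 call in 253J was lost on leaving out any one 253J library other than negative replicate 3. PLOD1, P3H1 and PLOD2 passed in 253J with the replicate block (adjusted p = 0.000327, 0.00249 and 0.000413). COL8A1 rose 3.96-fold in 253J, and in A375 its level went with the number set more than with uptake, at 786, 748 and 147 in positive cells, against 529, 198 and 193 in negative cells. On leaving out each library, 10 to 11 members were called, and the call of P4HB was the 1 that was lost.

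**Figure D3:**
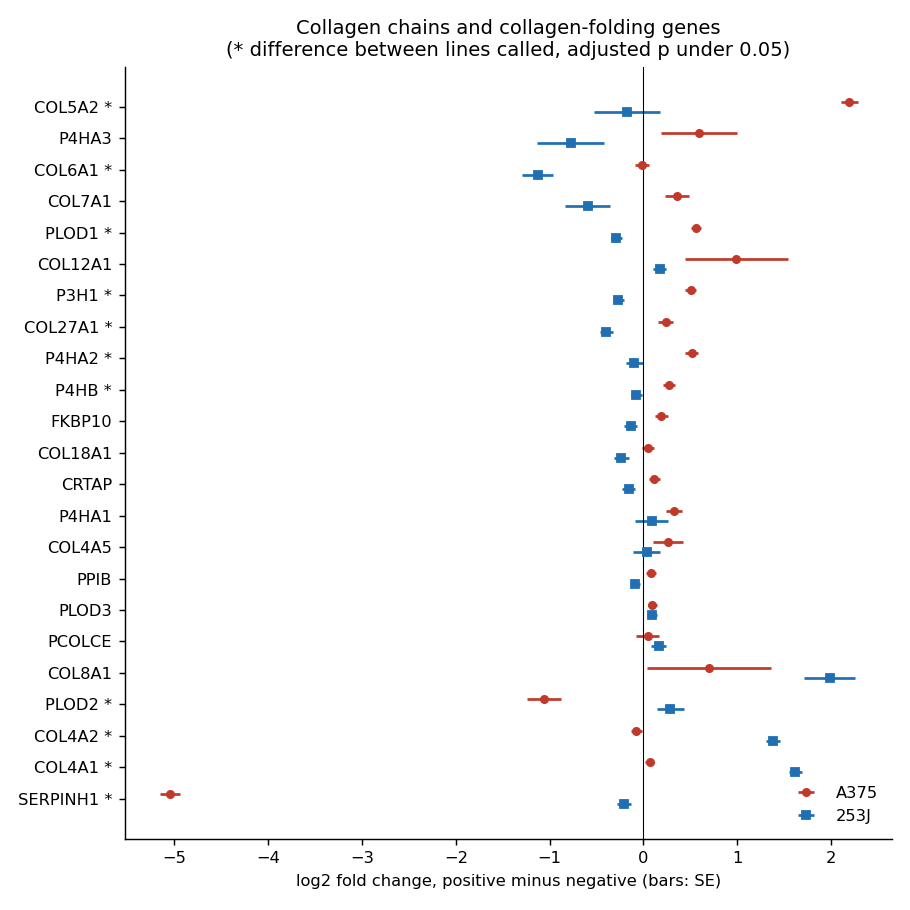
Log2 change from negative to positive cells, with its standard error, in A375 (circles) and 253J (squares) for the 23 collagen and collagen-folding genes tested, ordered by the difference between lines. A star marks the 11 genes called for the difference. SERPINH1 fell 33.1-fold in A375, whereas COL4A1 and COL4A2 rose in 253J.

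On the list of axon guidance and neural genes, 38 of 48 were tested and 13 (34.2%) were called for the difference, 8 higher and 5 lower. Besides ROBO2 these include its ligand SLIT2, which had 35.3, 32.2 and 13.2 in A375 positive cells, against 3.0, 3.0 and 1.0 in A375 negative cells, and 761, 748.5 and 829 in 253J positive cells, against 848, 816 and 823 in 253J negative cells. The secreted semaphorin SEMA3D rose 6.13-fold and the adhesion molecule L1CAM 1.47-fold in A375. NRCAM, of the same family as L1CAM, fell 1.74-fold and the secreted guidance cue NTN1 1.39-fold in A375. NRP2 and NCAM1 changed in 253J. NRCAM and SEMA3D also passed in 253J with the replicate block (adjusted p = 0.00434 and 0.00243).

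Of the proteases and their inhibitors 21 of 39 were tested, and 6 (28.6%) were called, all with a more positive change in A375. They include ADAM12 (2.55-fold higher in A375, 1.26-fold higher in 253J), ADAMTS1 and ADAM15 (1.36-fold higher in A375, 1.06-fold lower in 253J). ADAM12 passed in 253J with the replicate block (adjusted p = 0.00156). Of 46 matrix glycoproteins and proteoglycans, 35 were tested and 7 were called, 3 higher and 4 lower, VCAN, SULF2, FBN2 and FBLN1 among them. Of 32 integrin and focal adhesion genes, 25 were tested and 6 (24.0%) called. The integrin chain ITGA3 fell 1.94-fold in A375 with 1.09-fold higher levels in 253J, and the adhesion linker VCL rose 1.21-fold in A375 with 1.04-fold lower levels in 253J. The A375 calls of VCL, NTN1 and P4HB were lost without A375 positive replicate 1 or 2 or A375 negative replicate 2 or 3, and that of SLIT2 without A375 positive replicate 2.

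Of 29 phagocytic receptor and bridging genes, 21 were tested and none was called for the difference by limma. At an unadjusted p under 0.05 there were 9 (2587 of all 12509 genes), edgeR on the recovered reads called 1 (791 of all genes) and DESeq2 called 4 (1038 of all genes). The replicate block gave 8 (2032 of all genes) and the number set block 13 (3504 of all genes), so the count depends on the fit. MERTK, a receptor for apoptotic cells, had 51.9, 82.3 and 103 in A375 positive cells, against 135, 329 and 282 in A375 negative cells, and 23.5, 19 and 21.3 in 253J positive cells, against 32.8, 19.3 and 15.1 in 253J negative cells. It fell 3.02-fold in A375, and the difference of -1.59 ± 0.50 log2 was not called (adjusted p = 0.0814) but passed with the replicate block (0.00302) and the number set block (0.005). The A375 call of MERTK (0.0316) was lost without A375 positive replicate 1 or 2 or A375 negative replicate 2 or 3. ITGB5, an integrin chain that binds vitronectin, and CD44, the hyaluronan receptor, fell 1.42- and 1.18-fold in A375, and the bridging ligand GAS6 fell 1.53-fold in 253J, each with no called difference. The CD44 call in A375 (adjusted p = 0.0479) was lost on leaving out any one of the 6 A375 libraries and with chromosome medians taken out (0.846). The receptor AXL had 827, 797 and 453 in A375 positive cells, against 1462, 842 and 937 in A375 negative cells. Its A375 change was not called (adjusted p = 0.189) but passed with the number set block (7.53e-15) and the replicate block (0.0131), as did its difference between lines (1.31e-08 and 0.024). CAV1 and VIM were called in neither line, and in A375 both passed with the number set block (adjusted p = 0.00109 and 0.000113).

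In the lysosome list 47 of 48 genes were tested and 10 (21.3%) called, 7 higher and 3 lower. The palmitoyl hydrolase PPT1, on chromosome 1, rose 1.23-fold in A375, with 1.08-fold lower levels in 253J. LAMP1, a protein of the lysosomal membrane, was called for the difference alone (0.28 ± 0.06 log2, adjusted p = 0.0155), with 1.04-fold higher levels in A375 and 1.17-fold lower levels in 253J, and this call was lost without A375 negative replicate 2 (adjusted p = 0.0514). Of 31 endocytosis genes 5 (16.1%) were called. The membrane-shaping EHD2 and EHD3 fell 1.44- and 2.33-fold in 253J, and PACSIN3 fell 1.52-fold in A375. The 253J calls of EHD2 and EHD3 were lost without 253J positive replicate 1 or 2 or 253J negative replicate 2, that of EHD2 also without 253J negative replicate 1 and that of EHD3 without 253J positive replicate 3. Of 34 Rab GTPases 4 (11.8%) were called, RAB20 and the melanosomal RAB32 with the smallest p. Of 40 genes of branched actin 4 (10.0%) were called. WASF3, of the WAVE complex, rose 1.83-fold in A375, and FSCN1, the bundling protein of filopodia, was 1.06-fold lower in A375 and 1.49-fold higher in 253J positive cells, a difference of -0.66 ± 0.16 log2 (adjusted p = 0.0237), and its 253J change passed with the replicate block (3.98e-05). The difference call of FSCN1 was lost without A375 positive replicate 2, A375 negative replicate 2 or 3, or 253J positive replicate 1 or 2.

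Of 27 p53 targets tested, 11 rose and 1 fell in A375, where 4.56% of all genes rose and 4.87% fell, and none was called in 253J by limma (0.927% of all genes). In 253J the replicate block gave 4 (1751 of all 12509 genes) and the number set block 8 (2354 of all genes). EdgeR and DESeq2 gave 0 each in 253J (123 and 245 of all genes), so the count depends on the fit. There 3 had an unadjusted p under 0.05, a count with no share over all genes to set beside it. For 4 of the 27 (14.8%) the difference was called, with the cell cycle inhibitor CDKN1A 1.78-fold higher in A375 and 1.01-fold lower in 253J, and 2 of these 4 calls were left with chromosome medians taken out. The A375 calls of this list were not counted in that fit. BTG2, 1 of the 11 that rose, lies on chromosome 1, where the median A375 change of protein-coding genes was 0.16 log2. The part of such shifts in the 11 rises was not tested. Of 25 NRF2 and ferritin genes 6 (24.0%) were called, with the ferritin light chain FTL 1.38-fold higher in A375 and 1.22-fold lower in 253J, and the 253J change passed with the replicate block (adjusted p = 0.000638). Of 27 genes of ERK feedback 3 (11.1%) were called. DUSP6, a phosphatase of ERK, fell 1.15-fold in A375 and was 1.47-fold higher in 253J positive cells (adjusted p = 0.0783 and 1.04e-05 with the replicate block). The A375 call of DUSP6 (0.0429) was lost on leaving out any one of the 6 A375 libraries and with chromosome medians taken out (0.0768). In 253J the YAP target CTGF and the chemokine CXCL8 rose 2.58- and 2.15-fold, with no called difference from A375 (adjusted p = 0.359 and 0.248), although both differences passed with the replicate block (0.0406 and 0.0125) and the number set block (9.39e-09 and 2.16e-06). CTGF in A375 was at 2279, 2191 and 829 in positive cells, against 2217, 883 and 873 in negative cells, so its level there too went with the number set. The 253J calls of CXCL8 and GAS6 were lost without 253J positive replicate 1 or 2 or 253J negative replicate 2, and that of GAS6 also without 253J negative replicate 1. Exon sequence is shared with a gene on the opposite strand by PPT1 (CAP1), VCL (AP3M1), DUSP6, CD44, CTGF, GAS6, VIM and PMEL, and on the same strand by ADAM15 (DCST1) and SEC14L1 (SNHG20).

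Shares near or under the background were found by limma without a block for DNA replication (1 of 44), mitosis (1 of 40) and the cytosolic ribosome (4 of 52). The same held for glycolysis and hypoxia (1 of 34) and the unfolded protein response (1 of 31). With the number set block the counts, in this order, were 25, 19, 22, 16 and 12 (3504 of all 12509 genes). With the replicate block they were 8, 8, 13, 9 and 5 (2032 of all 12509 genes), so they depend on the fit. For cholesterol synthesis 0 of 25 were called by limma, edgeR and DESeq2, and 1 had an unadjusted p under 0.05 (2587 of all 12509 genes). Of 10 pigment cell genes tested, GPR143 was the 1 called for the difference.

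**Figure D4:**
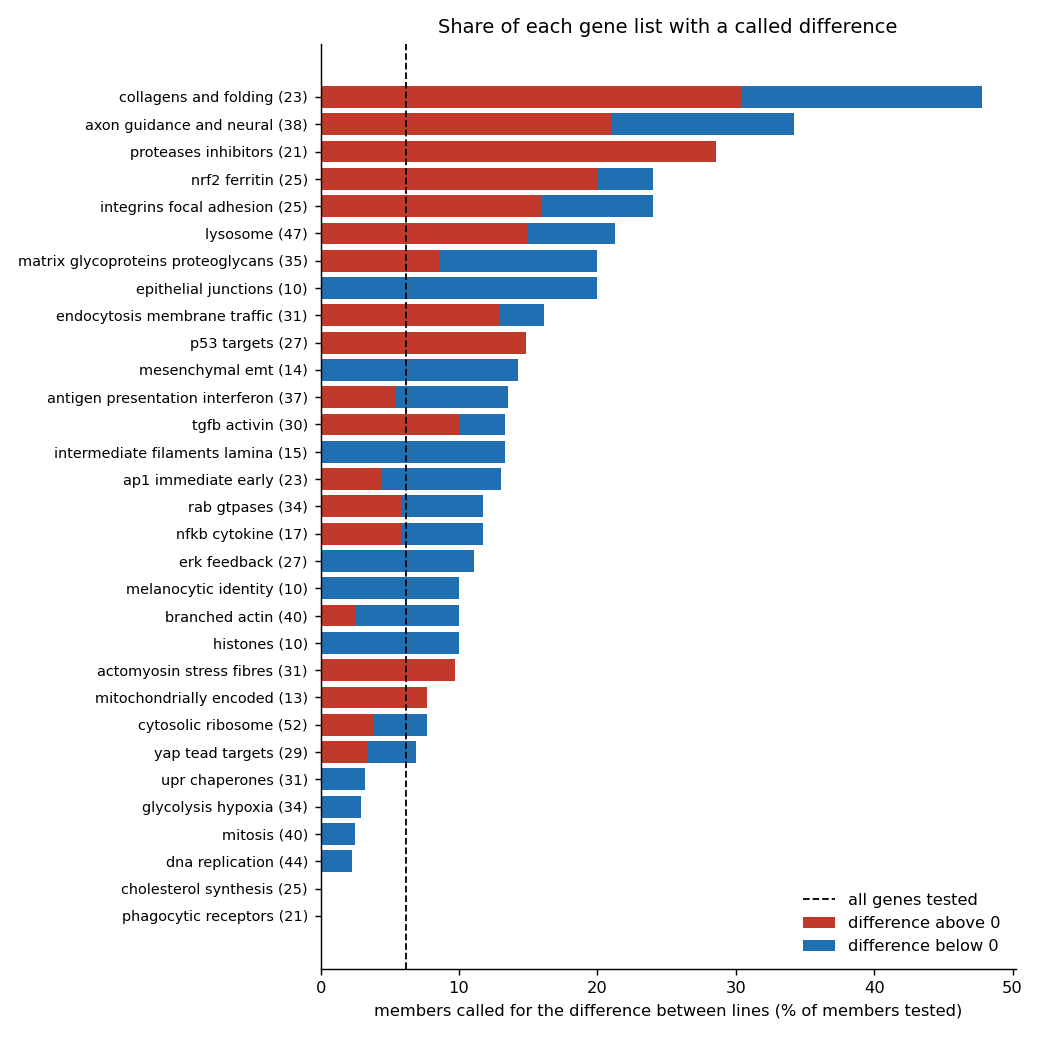
Share of the tested members of each gene list called for the difference between lines, split by direction (above 0, the A375 change is the more positive), with the number tested in parentheses. Lists with at least 10 tested members are shown, and the dashed line marks the 6.16% of all genes tested. The lists were chosen with earlier results of these data known, so the shares are a description. Collagens and their folding genes stand at 47.8%, and phagocytic receptors and cholesterol synthesis at 0.

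The called genes were unevenly spread over chromosomes. Of the 248 A375-specific genes that fell, 77 (31.0%) lie on chromosome 11, which holds 5.49% of the genes tested. Of the 258 A375-specific genes that rose, 87 (33.7%) lie on chromosome 1, which holds 10.06%. The median change of protein-coding genes was -0.27 log2 on chromosome 11, -0.24 on chromosome 18, -0.12 on chromosome 20 and 0.16 on chromosome 1 in A375, against -0.01, 0.01, 0.00 and -0.01 in 253J. In 253J the median was 0.12 on chromosome 7 and -0.13 on chromosome 13, against -0.04 and 0.00 in A375. The difference was called for 9.45% of the genes on chromosome 1, 13.2% on chromosome 11 and 8.68% on chromosome 7, where 46 of 645 genes had a called negative difference. Over all genes the median change was 0.00 in each line. With each chromosome's median taken out, 479 differences were called among the 12509 genes, 284 higher and 195 lower, and 308 genes were A375-specific. By list, that fit called 11 members for collagens and their folding, 13 for axon guidance and 6 for proteases. It called 6 for matrix glycoproteins and proteoglycans, 5 for integrins and 7 for the lysosome. For endocytosis it called 3, for Rab GTPases 2, for branched actin 2, for NRF2 and ferritin 3 and for ERK feedback 2. Among the genes named above, the calls for the difference of PPT1, PACSIN3, LAMP1 and FSCN1 were lost in that fit, while those of SERPINH1, MDK, MICAL2, COL4A1, COL4A2, RAB20 and PLPP3 held. DNA copy number was not analysed here, and its part in these shifts was not tested.

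**Figure D5:**
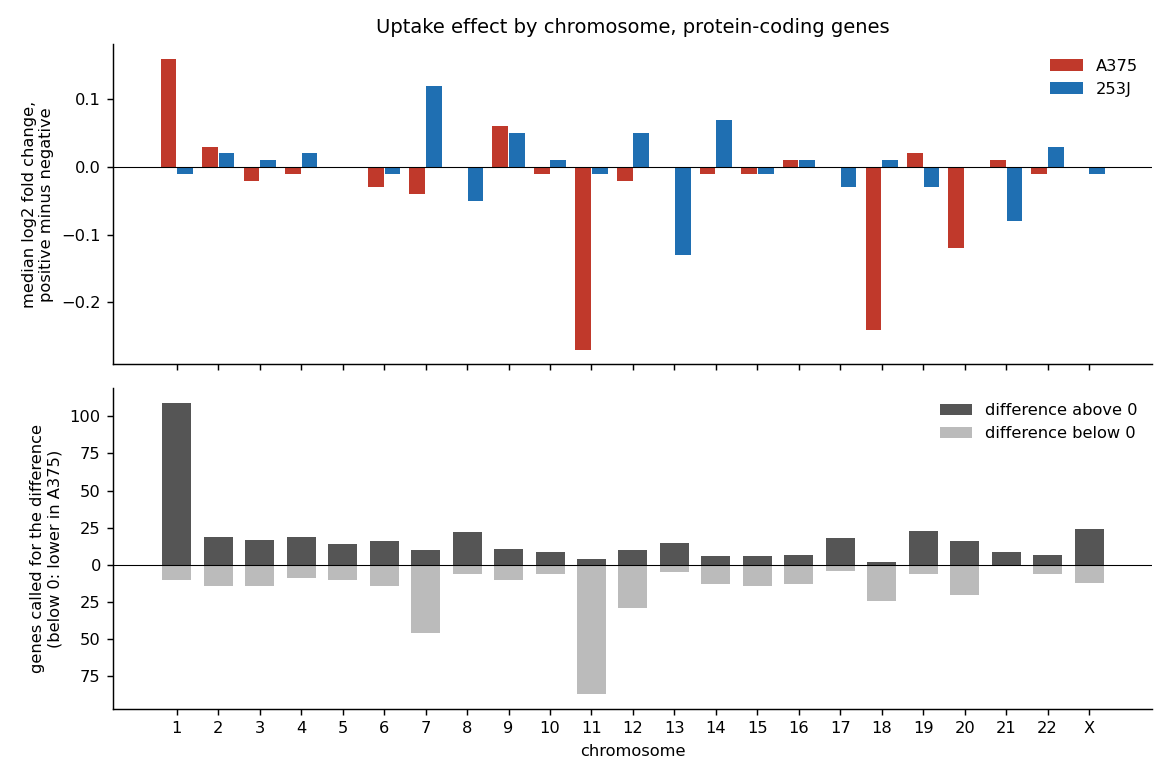
Top, median log2 change from negative to positive cells over the protein-coding genes of each chromosome in A375 and 253J. Bottom, number of genes called for the difference between lines on each chromosome, with positive differences upward and negative ones downward. Chromosome 1 has 109 positive differences and chromosome 11 has 87 negative ones.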

How the data were processed

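RNA-seq of 12 libraries from A375 and 253J was used, 3 per line and branch. The tables the authors deposited hold a signal, that is gene counts scaled by library size factors set within each line, rounded to 0.1, in 1 table per line with the same 19423 genes. Per the submitters' processing notes, cutadapt, STAR 2.4.2a, HTSeq and DESeq2 were used with GRCh38. The annotation release, counting strand and other settings are not given in the sources used here. The lines were scaled separately, which cancels in the difference between lines but not in levels. Dividing by the step between low values gave whole reads within 0.05 for at least 99.8% of values, with 14576506 to 17916519 reads per library.

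Here log2(value + 1) was fitted with limma-trend (limma 3.58.1, R 4.3.3). Each line was fitted alone over its genes with a mean of at least 10 (14118 in A375, 14189 in 253J), and the difference was a contrast in 1 fit of the 4 groups over the 12509 genes kept in both. P-values were adjusted by Benjamini-Hochberg over all genes of each fit, and 0.05 was the threshold. Folds come from the log2(value + 1) scale, which understates changes of low genes. Alternatives on the recovered reads used edgeR 4.0.16 (quasi-likelihood) and DESeq2 1.42.0. The limma contrast for the difference, and no other fit, was tested on simulated counts that had no number sets. It recovered 100% of 4-fold differences. Of 1.5-fold differences it recovered 36% at a dispersion of 0.01 and 8% at 0.03, so small differences can go uncalled.

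Same-numbered positive and negative libraries deviated together in 253J (correlations 0.30, 0.22 and 0.51), so their numbers were taken as pairs. Positive replicates 1 and 2 had nearly the same correlations with negative replicates 2 and 1 (0.23 and 0.19). The members, the 34 gene lists and the tests were chosen with earlier results of these data known. Named genes are those with the largest changes per class among genes with a mean of at least 50 in each line (in line-specific classes also with no overlap of the libraries of that line) and, with no such minimum, the 2 called genes with the smallest p of each list and a fixed set of line and uptake markers, not all of which are described. A gene that the rule names is not reported here. In the both-line classes PDE7B, ADGRL2, GPR143, FAM83H, FBLN1, FBN2, EYA4, PRR5L and IGFBP7 fall under that mean. Of these, GPR143 and FBN2 were named by the list rule, and the others were named after their values were seen. So were PLOD1, P3H1, COL5A2, PLOD2, COL27A1, P4HA2, P4HB, COL8A1, SEMA3D, NRCAM, SLIT2, NTN1, L1CAM, GAS6, PPT1, EHD2, CTGF, CXCL8 and ADAM12. Gene positions are from GENCODE release 29 on GRCh38, matched for 99.6% of genes, and promoter sequences from RefSeq on GRCh38.p14. A planned count of promoter motifs was void, since under 80% of the genes tested matched a promoter window.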

Additional observations from a re-analysis of the deposited data

Results flagged for a closer look

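The uptake effect of 103 named genes differed between the lines by the test of the difference itself (limma, adjusted over the 12509 genes tested), which is what drew attention to them. Each value in parentheses is the log2 change in A375 minus that in 253J, so that a positive value means a more positive change in A375. Of the 12509 genes tested, 6.16% were called.

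Among genes called in both lines with 1 sign, the values were ADGRL2 (3.38), CACNA2D1 (1.02), GNAI1 (0.76), GPR143 (-2.42), MAP1B (0.68) and NCKAP5 (-1.16). In opposite genes they were CTSZ (-1.18), DUSP9 (2.55), EYA4 (-1.99), FBLN1 (-3.45), FBN2 (-3.79), GBE1 (0.70), IGFBP7 (3.42), NOV (1.90), PAPSS2 (3.55), PRR5L (3.33), SCRN1 (-0.80) and TMX4 (1.40). The value of ADGRL2 depends on the pseudocount, since its A375 negative libraries were at 1.0, 0.0 and 0.0.

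Among the named A375-specific genes with a more positive change in A375 the largest were TNFRSF11B (4.73), ROBO2 (3.14), SLIT2 (3.11), VCAN (2.99), SEMA3D (2.89), SLC8A1 (2.70), IFI44 (2.38), COL5A2 (2.37) and TNFAIP6 (1.92). Next came MAP2 (1.89), ADAMTS1 (1.81), SLC12A7 (1.65), RP11-568K15.1 (1.56), ENSG00000143248 (1.04), ADAM12 (1.02), RBMS3 (0.97), PLOD1 (0.85) and CDKN1A (0.85). Below these were WASF3 (0.85), P3H1 (0.77), FTL (0.75), BMP1 (0.62), L1CAM (0.62), P4HA2 (0.61), EPHX1 (0.61), FDXR (0.57) and BTG2 (0.55). The smallest were ADAM15 (0.53), PPT1 (0.41), TGFBR2 (0.39), P4HB (0.35), RHOC (0.34) and VCL (0.33).

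Among the named A375-specific genes with a more negative change in A375 the largest in size were SULF2 (-4.97), SERPINH1 (-4.84), CALB2 (-4.29), SHISA3 (-3.16), MICAL2 (-2.03), MDK (-1.98), SLCO3A1 (-1.70), CLDN4 (-1.65) and PLOD2 (-1.35). These were followed by ITGA3 (-1.09), NNMT (-1.06), PPARG (-1.04), NRCAM (-1.0), IER3 (-0.89), CA12 (-0.79), DUSP6 (-0.76), PACSIN3 (-0.69) and LOXL2 (-0.69). Further down were TNFAIP2 (-0.68), POLE2 (-0.66), INCENP (-0.65), NTN1 (-0.65), AMOTL1 (-0.60), CD74 (-0.60), H1FX (-0.57), SYNE2 (-0.56) and TGFBI (-0.44). SYVN1 (-0.31) was the smallest in size. The difference calls of CLDN4 and H1FX were among the less stable, each lost on leaving out any 1 of 9 libraries. Both were also lost with chromosome medians taken out (limma adjusted p = 0.0893 and 0.0607).

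In 253J-specific genes the difference was positive, with a fall in 253J, for C1QL1 (0.93), COL27A1 (0.64), COL6A1 (1.11), EHD2 (0.61), EHD3 (1.27), LIMA1 (1.36), NRP2 (1.51), PLPP3 (2.02) and RAB20 (2.77). It was negative, with a rise in 253J, for COL4A1 (-1.55), COL4A2 (-1.46), MAMDC2 (-2.89), NCAM1 (-1.29), RYR2 (-1.18) and SIRPB1 (-2.34). Called for the difference and in neither line alone were DSG2 (-0.50), FSCN1 (-0.66), LAMP1 (0.28), MT-ND6 (0.47), MYH14 (0.63), RAB32 (-0.59), RPL22 (0.33), RPL6 (-0.26) and SUN1 (-0.52).

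ENSG00000143248 is listed as RGS5, a symbol that a second identifier also carries, and its exons overlap those of that identifier. With each chromosome's median change taken out, 433 of all 770 called differences stayed called, and 381 of the 770 stayed called without each library in turn.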

How the results depend on the processing

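The count of 770 called differences lay between 688 and 1038 with pseudocounts of 0.5 and 5, no filter or a mean of at least 50, TMM scaling, edgeR, DESeq2 or library weights, and 736 and 758 of the 770 were shared with edgeR and DESeq2. Without the filter the classes held 2 same-direction, 1 opposite and 26 253J-specific genes, with 58 called in 253J, where more genes were tested. DESeq2 gave 24, 26 and 110 of these, with 245 called in 253J. Taking out chromosome medians left 479 differences (195 lower), 308 A375-specific genes and 668 calls in A375.

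With the number set as a block there were 3504 differences (1673 higher, 1831 lower), 3961 calls in A375 and 2354 in 253J. The classes then held 441 same-direction, 474 opposite, 1813 A375-specific and 800 253J-specific genes. The low-numbered libraries alone gave 2745 differences (1383 and 1362), 2508 and 2701 calls, and 357, 363, 1196 and 752 genes by class. The high-numbered libraries alone gave 1887 differences (726 and 1161) and 1984 calls in A375, and since 253J then has 1 library against 1, classes and 253J tests could not be had. With same-set libraries averaged, 85 differences (49 and 36), 34 and 14 calls, and 2, 0, 22 and 6 genes by class were found. This fit has fewer samples. For the other shifts the cause was not tested.

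With a replicate block in both lines there were 2032 differences (971 higher, 1061 lower), 2031 calls in A375 and 1751 in 253J, and the classes held 193 same-direction, 168 opposite, 1025 A375-specific and 504 253J-specific genes. In A375 the numbers share only a number (same-number correlations of 0.43, -0.28 and 0.40). With the block in 253J alone, an alternative chosen after seeing the data, there were 118 same-direction, 107 opposite, 396 A375-specific and 197 253J-specific genes.

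Leaving out each library in turn gave 444 to 916 differences (239 to 471 higher, 205 to 445 lower), 3 to 28 same-direction, 0 to 31 opposite, 213 to 634 A375-specific and 18 to 101 253J-specific genes. Calls numbered 358 to 1548 in A375 and 27 to 307 in 253J. The count of differences fell by over 1.5 times without A375 positive replicate 1 (488) or 2 (484), A375 negative replicate 2 (484) or 3 (512), or 253J positive replicate 1 (448), 253J positive replicate 2 (444) or 253J negative replicate 2 (500). Calls in A375 numbered 401 and 358 without A375 positive replicates 1 and 2, and 379 and 443 without A375 negative replicates 2 and 3. Calls in 253J numbered 30 and 27 without 253J positive replicates 1 and 2, and 54, 38 and 307 without 253J negative replicates 1, 2 and 3.

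Over 257 results of the 123 named genes, differences near 0 changed sign. CDYL2 was at -0.10 in the low-numbered libraries and between -0.19 and 0.20 without single libraries. PAPPA was between -0.28 and 0.24 without single libraries. PDE7B was at 0.21 with a pseudocount of 5, 0.00 with TMM scaling and 0.01 without chromosome medians, and between -0.22 and 0.26 without single libraries. PMEL was at 0.02 with the number set block, 0.63 in the low-numbered libraries (adjusted p = 0.00181) and between -0.37 and 0.16 without single libraries. The A375 change of CD44 was at 0.03 without chromosome medians.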
